A study of Mus musculus with 12 samples.

Results

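The genes read here carry the leukaemia inhibitory factor (LIF) signal to STAT3 in mouse embryonic stem cells (mESC) or are its target genes. They were 7 of the 35976 genes in a table of normalised RNA-seq read counts, picked by symbol: the receptor chains Lifr and Il6st, the kinase Jak1, the transcription factor Stat3, and the target genes Socs3, Pim1 and Gbx2. All 7 were found, and all 7 were among the 15341 genes whose mean normalised count over the libraries reached 10, the minimum for testing. RNA was sequenced from cells of 3 genotypes at 2 stages, with 2 libraries, called replicates A and B, in each of the 6 groups. WT (wildtype), PROSER1 KO and KO+Rescue cells were taken as mESC and after 48 hours of monolayer culture in N2B27 medium (day 2).

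Every group came from a feeder-free mESC line made from TET2 fl/fl blastocysts, so WT and KO share that allele. The KO was a CRISPR clone grown from 1 cell, with a guide to exon 1 of Proser1. KO+Rescue was the KO line given a FLAG-tagged Proser1 coding sequence by PiggyBac transposition, selected in blasticidin and subcloned by limiting dilution. Each genotype is thus 1 line, and a difference between lines cannot be told apart from a difference between clones. The mESC medium held serum, LIF-GST at 100 ng/mL, the GSK3 inhibitor CHIR99021 at 3 µM and the MEK inhibitor PD0325901 at 1 µM. The listed parts of the N2B27 medium include none of these, so the stage comparison spans the loss of LIF, serum and both inhibitors at once. The labels call the libraries biological replicates without saying whether the cultures were separate, so p-values measure the spread between these libraries, which may be technical.

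LIF binds a pair of receptor chains, LIFR and gp130 (the product of Il6st), and brings together the JAK kinases attached to them. The kinases phosphorylate STAT3, which enters the nucleus and switches on target genes, among them Socs3, whose product inhibits the receptor and its kinases in a feedback loop. In mESC this pathway is a classical support of self-renewal, and removal of LIF in serum-free medium is a standard way to let the cells leave the naive state. In GRCm38.p6 the genes lie on 6 chromosomes: Lifr at chr15:7090610-7197489, Il6st at chr13:112464070-112506860, Jak1 at chr4:101151974-101265282, Stat3 at chr11:100886806-100939594, Socs3 at chr11:117966079-117970336, Pim1 at chr17:29490785-29496111 and Gbx2 at chr1:89927962-89931176. RNA levels report the abundance of the pathway's transcripts and not the phosphorylation of STAT3.

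STAT dimers bind the palindrome TTCNNNGAA, which reads the same on both strands. It was searched in RefSeq promoter windows (mouse GRCm38.p6, the assembly also called mm10), each running from 250 bases before a transcript's start to 50 bases after it. Of the 9 windows of the 7 genes only 1, that of Socs3, held the motif, against 8.3% of all 32851 windows. The Socs3 window (chr11:117969317-117969616, minus strand) is shown because Socs3 had the largest fold loss of the 7 genes on the stage change in each genotype. The capitals mark the motif, which began 154 bases before the transcript start used for this window. The window lies inside the Socs3 interval given above, as both Lifr windows and a Pim1 window lie inside those of their genes.
Socs3: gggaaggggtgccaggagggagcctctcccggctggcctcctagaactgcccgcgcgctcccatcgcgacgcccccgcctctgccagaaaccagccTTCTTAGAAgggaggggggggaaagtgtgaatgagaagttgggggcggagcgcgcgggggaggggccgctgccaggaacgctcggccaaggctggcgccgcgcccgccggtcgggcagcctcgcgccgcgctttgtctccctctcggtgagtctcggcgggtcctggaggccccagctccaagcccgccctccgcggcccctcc
A match is a run of letters and not a shown binding site, and the absence of these letters from the other 8 windows covers only 300 bases each.

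Stat3 and Il6st are shown next because they had the largest KO changes of the 7 genes at day 2. Their capitals mark CG dinucleotides, the positions at which DNA is methylated and at which the TET enzymes act. The windows lie at chr11:100939491-100939790 on the minus strand (Stat3) and chr13:112463820-112464119 on the plus strand (Il6st).
Stat3: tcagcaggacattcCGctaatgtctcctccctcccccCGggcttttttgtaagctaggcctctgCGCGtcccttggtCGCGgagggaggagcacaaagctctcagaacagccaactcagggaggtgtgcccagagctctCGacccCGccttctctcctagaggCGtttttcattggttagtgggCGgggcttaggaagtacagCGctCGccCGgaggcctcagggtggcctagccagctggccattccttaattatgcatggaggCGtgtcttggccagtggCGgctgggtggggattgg
Il6st: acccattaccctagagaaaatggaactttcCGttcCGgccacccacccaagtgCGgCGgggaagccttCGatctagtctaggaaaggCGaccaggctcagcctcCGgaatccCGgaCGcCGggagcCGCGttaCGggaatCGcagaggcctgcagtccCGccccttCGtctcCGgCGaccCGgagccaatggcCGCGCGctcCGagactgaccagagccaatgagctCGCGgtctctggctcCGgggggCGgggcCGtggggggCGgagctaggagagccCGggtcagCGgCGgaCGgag
The Stat3 window held 15 CG dinucleotides and the Il6st window 33, against a median of 7 and an upper quartile of 20 over all windows. Socs3 held 31, Jak1 29 and Gbx2 27. Lifr and Pim1 each had 2 windows, with 53 and 4 CG dinucleotides for Lifr and 42 and 5 for Pim1. DNA methylation is not analysed here.

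The 12 libraries held 38634668 to 66450803 assigned read pairs. Proser1 itself had 889 and 550 normalised counts in WT mESC, 576 and 502 in KO mESC, and 2828 and 3090 in KO+Rescue mESC. At day 2 the WT libraries had 829 and 685, those of KO 872 and 1067, and those of KO+Rescue 3041 and 2994. The deposited columns carry only the names 39 and 39R for KO and KO+Rescue, so the KO assignment rests on that reading. The RNA checks the KO+Rescue label, while it did not separate KO from WT (log2 change −0.38, adjusted p = 0.215 in mESC and 0.36, adjusted p = 0.368 at day 2), and an exon 1 indel need not lower the RNA. On the stage change 8 of 9 naive markers fell in WT, and all 9 did in both other genotypes, while all 8 formative markers rose everywhere. In KO against WT none of the 9 naive markers was called as mESC, and 2 rose and 3 fell at day 2. Neuroectoderm markers, with Nes the most abundant, summed to 303 to 349 normalised counts in WT mESC and 291 to 366 in KO mESC, and to 2145 to 3883 in WT and 4340 to 4437 in KO at day 2. Mesendoderm markers, with Eomes the most abundant, summed to 1537 to 1542 in WT mESC and 772 to 864 in KO mESC. At day 2 they summed to 167 to 222 in WT and 448 to 477 in KO. The single markers were mixed. Of 5 tested in KO against WT, 1 was called lower and 2 had a positive change as mESC. At day 2, 2 of the 5 were called higher and 2 had a negative change. In each of the 3 mESC groups all 7 genes were higher in replicate A than in B, with a median log2 gap of 0.40 for the WT pair, 0.13 for the KO pair and 0.10 for the KO+Rescue pair, against 0.02, 0.00307 and −0.02 over all tested genes. The share of reads on ribosomal protein genes was 11.9% in WT mESC replicate A and 14.9% in B, 16.3% and 18.6% in KO mESC, and 17.3% and 22.2% in KO+Rescue mESC. The part of the markers, of the A and B gap and of the ribosomal share in the results was not tested.

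**Figure D1:**
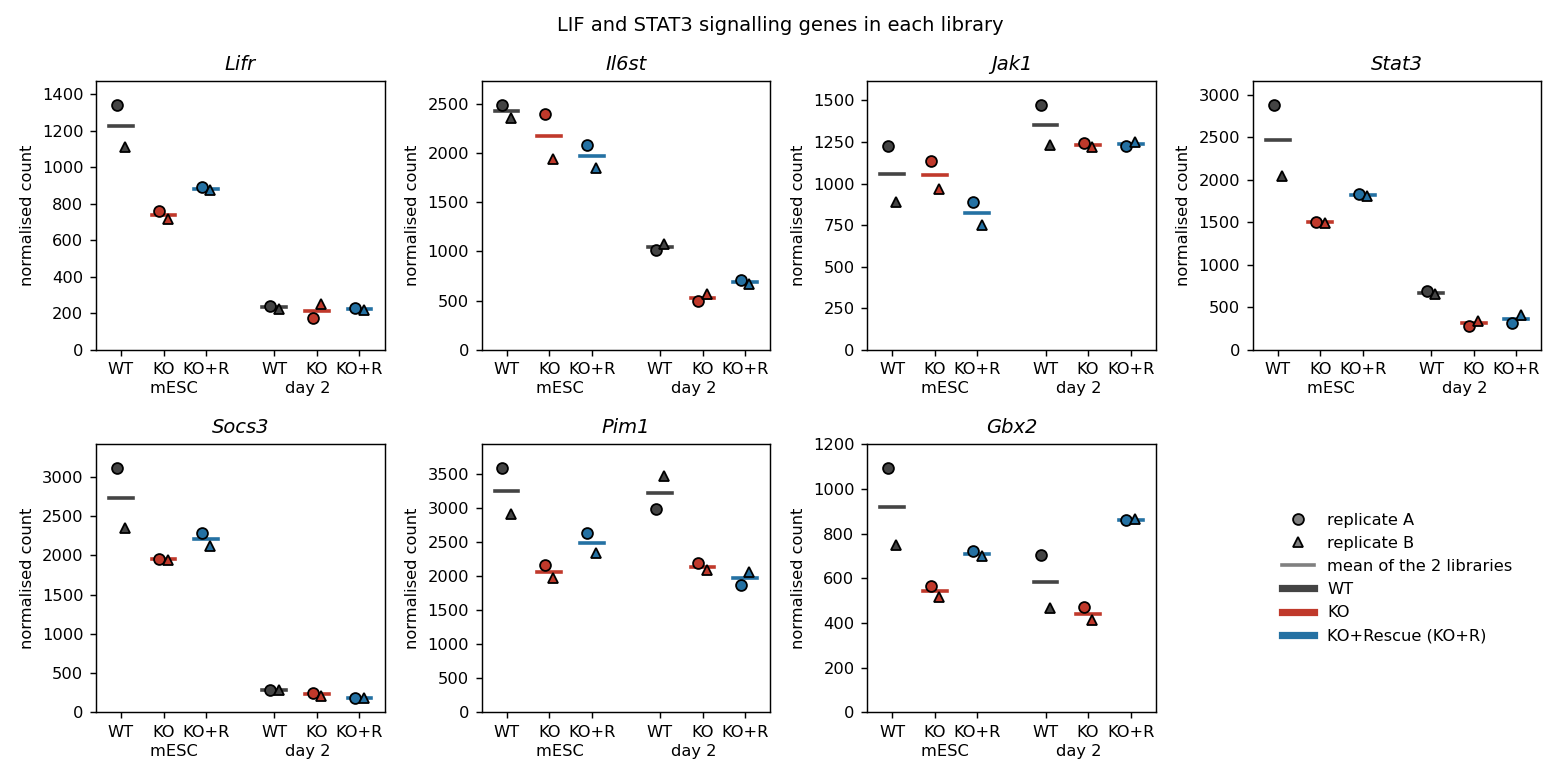
Normalised read count of each of the 7 genes in each library (circles, replicate A; triangles, replicate B; horizontal lines, mean of the 2 libraries), on linear axes from 0. Lifr, Il6st, Stat3 and Socs3 dropped from mESC to day 2 in every genotype, while Pim1 stayed between 1879.7 and 3593 in all libraries.

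Read per kb of transcript, the targets Pim1 and Socs3 led in WT mESC. Pim1 had 1144 and Socs3 1025 normalised counts per kb, ahead of Stat3 (539) and the target Gbx2 (427). The receptor and kinase transcripts were lower, with 279 for Il6st, 187 for Jak1 and 123 for Lifr. At day 2 in WT the order had changed: Pim1 kept 1137 per kb and Gbx2 272, Jak1 had 239, Stat3 147, Il6st 120 and Socs3 105, and Lifr came last with 23.3. The 7 genes were covered by 161 to 4940 read pairs in a library, and the intervals given throughout are those of the spread between libraries.

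From mESC to day 2 the transcripts of both receptor chains, of Stat3 and of Socs3 fell in all 3 genotypes, Socs3 the most. Jak1 rose and Pim1 fell in KO+Rescue alone at the threshold, and Gbx2 fell in WT alone, with all these values at or under 0.66 on the log2 scale. In WT 5 of the 7 genes fell and none rose, where 25.3% of all tested genes fell and 26.6% rose. In KO 4 fell and none rose (28.7% and 31.4% of all genes). In KO+Rescue 5 fell and 1 rose (29.1% and 29.2%). Because a bulk library averages over its cells, fewer cells with a transcript and less of it per cell cannot be told apart in any of these results.

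Lifr, the LIF-binding receptor chain, had 1338 and 1113 normalised counts in the WT mESC libraries and 239 and 225 at day 2. The KO had 757 and 714 as mESC and 175 and 249.9 at day 2. In KO+Rescue the values were 892 and 873, then 228 and 216. No day 2 library came near an mESC library of any genotype, and the 3 genotypes overlapped at day 2. The fall was 5.26-fold in WT (log2 change −2.39 ± 0.18 SE, adjusted p = 2.44e-07), 3.50-fold in KO and 3.96-fold in KO+Rescue.

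Il6st, which encodes the shared signal chain gp130, had 2484 and 2361 normalised counts in WT mESC and 1017 and 1072 in WT at day 2. In KO it had 2396 and 1942 as mESC against 493 and 563 at day 2. In KO+Rescue it had 2086 and 1847 as mESC against 709 and 671. Genotypes overlapped as mESC between WT and KO and between KO and KO+Rescue, and separated fully at day 2, in the order WT, KO+Rescue, KO. The fall was 2.32-fold in WT (log2 change −1.21 ± 0.14 SE, adjusted p = 9.99e-06), 4.09-fold in KO (−2.03, adjusted p = 7.46e-08) and 2.84-fold in KO+Rescue (−1.51, adjusted p = 1.08e-06).

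Stat3 encodes the transcription factor at the centre of the pathway. Its normalised counts were 2874 and 2049 in WT mESC, and 693 and 651 in WT at day 2. KO cells had 1508 and 1486 as mESC and 284 and 338 at day 2. KO+Rescue cells had 1829 and 1804, then 311 and 407. WT stood above both other genotypes at each stage, and KO and KO+Rescue separated as mESC but overlapped at day 2. On the stage change Stat3 fell 3.61-fold in WT (log2 change −1.85 ± 0.18 SE), 4.82-fold in KO and 5.10-fold in KO+Rescue, with adjusted p from 1.88e-07 to 2.31e-06.

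Socs3, the feedback inhibitor, gave 3109 and 2351 normalised counts in WT mESC and 280.3 and 279 at day 2. The KO gave 1954 and 1945, then 251 and 213. KO+Rescue gave 2283 and 2125, then 189 and 180.4. The libraries of the 3 genotypes did not overlap at either stage, with WT on top, and the lowest mESC library was still 1945 against at most 280.3 at day 2. The fall was 9.64-fold in WT (log2 change −3.27 ± 0.15 SE, adjusted p = 4.60e-09), 8.39-fold in KO and 11.9-fold in KO+Rescue.

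Jak1, a kinase bound to the receptor chains, was higher at day 2 where it was called. Normalised counts were 1223 and 889 in WT mESC and 1469.8 and 1230.3 at day 2, with KO at 1135 and 969, then 1246 and 1219. KO+Rescue held 887 and 753 as mESC and 1225 and 1249 at day 2. Every day 2 library was higher than the mESC libraries of its own genotype, in WT by a small margin. The change was called in KO+Rescue (log2 change 0.60, 95% interval 0.24 to 0.95, adjusted p = 0.00757), though not without KO+Rescue mESC replicate B (0.48, adjusted p = 0.0717). It was 0.37 in WT (0.01 to 0.72, adjusted p = 0.0799) and 0.23 in KO (−0.12 to 0.59, adjusted p = 0.239). Without WT mESC replicate A (0.60, adjusted p = 0.0106) or WT day 2 replicate B (0.49, adjusted p = 0.0454) the WT change was called.

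Pim1, a serine/threonine kinase gene, stayed abundant at day 2. It had 3593 and 2913 normalised counts in WT mESC and 2990.4 and 3476 at day 2, and in KO 2172 and 1972, then 2195 and 2088. In KO+Rescue it had 2642 and 2345 as mESC and 1879.7 and 2065 at day 2. The stages overlapped in WT and in KO and separated in KO+Rescue. The log2 changes were −0.01 (95% interval −0.30 to 0.29) in WT and 0.05 (−0.25 to 0.35) in KO. In KO+Rescue Pim1 fell by 0.34 on the log2 scale (adjusted p = 0.0495), a call that was lost without any 1 of the 4 libraries (adjusted p 0.0585 to 0.232), with edgeR (adjusted p = 0.115) and with DESeq2 (adjusted p = 0.0609). With equal library totals the Pim1 change in KO+Rescue was 0.03, and in WT 0.23.

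Gbx2, a homeobox gene that maintains mESC when overexpressed, passed the threshold in WT. It had 1093 and 748 normalised counts in WT mESC and 702 and 469 in WT at day 2. In KO it had 566 and 518, then 469.8 and 412, and in KO+Rescue 720.5 and 698, then 862 and 863. Day 2 libraries lay below the mESC libraries in WT and KO and above them in KO+Rescue. The fall in WT (log2 change −0.66 ± 0.20 SE, adjusted p = 0.0163) was not called without WT mESC replicate A (−0.38, adjusted p = 0.152) or without WT day 2 replicate B (−0.36, adjusted p = 0.155), nor with only the groups compared (adjusted p = 0.0987) or equal library totals (−0.42, adjusted p = 0.201). The changes were −0.30 in KO (95% interval −0.74 to 0.14), which was 0.04 with equal library totals, and 0.28 in KO+Rescue (−0.16 to 0.72), which was called with equal library totals (0.65, adjusted p = 0.0454).

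**Figure D2:**
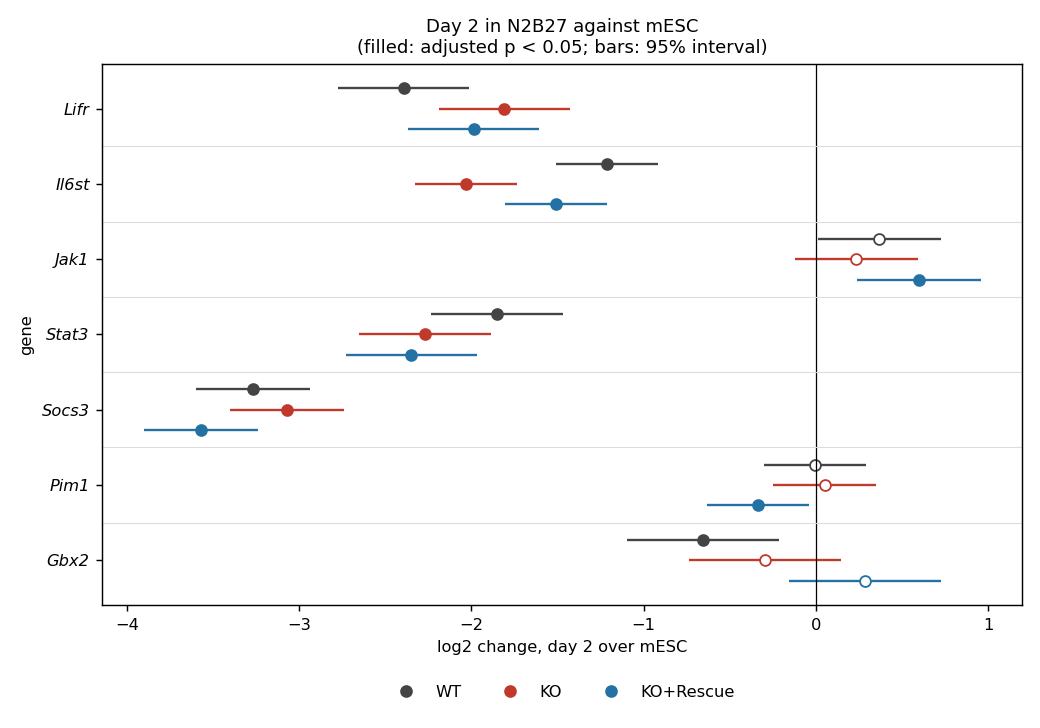
Log2 change from mESC to day 2 of each gene in WT, KO and KO+Rescue, with 95% intervals and filled points for adjusted p under 0.05. Socs3 lies between −3.57 and −3.07, Lifr, Il6st and Stat3 between −2.39 and −1.21, and Pim1 near 0 in WT and KO.

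The other genes of the pathway, 56 by list, were tested where they reached the minimum, which 49 did. In WT 15 rose and 18 fell, in KO 15 and 21, and in KO+Rescue 14 and 19, to be read against all tested genes, of which 26.6%, 31.4% and 29.2% rose and 25.3%, 28.7% and 29.1% fell in the same order of genotypes. Of 11 further STAT3 targets 8 fell and 1 rose in WT, with a list median of −1.25 (log2) against −0.02 over all tested genes. Klf4, a pluripotency factor, had 3477 normalised counts in WT mESC and 56.9 at day 2 (log2 change −5.89, adjusted p = 3.31e-10), and the pluripotency factor Tfcp2l1 had 7824 and 145 (−5.74). Klf5 fell by 2.96 and the adhesion gene Icam1 by 2.53 on the log2 scale. These 4 targets also fell in both other genotypes, with log2 changes of −5.69 to −2.62.

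Of 9 listed ligands 4 were tested, of which 3 rose in WT and 1 fell, and of 6 listed receptor genes 4 were tested, with 3 risen and 1 fallen. Lif rose from 72.0 to 201 (log2 change 1.51, adjusted p = 2.46e-04), Il11 from 3.73 to 31.1 and Ctf1 from 95.1 to 155, while Osm dropped from 122 to 1.94. The Ctf1 call was lost without any 1 of the 4 libraries (log2 changes 0.57 to 0.81). Of the receptor genes Cntfr (log2 change 1.66) and Il11ra1 (0.97) rose and Il6ra fell (−1.01, adjusted p = 0.0448). Il6ra was called in 4 of 8 other settings, and its change was −1.37 to −0.66 without 1 library. Cntfr encodes the alpha chain that binds ciliary neurotrophic factor and works with LIFR and gp130. In KO the Cntfr change was 3.79 and in KO+Rescue 3.44.

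Of 9 other JAK and STAT genes 5 fell in WT and 1 rose. Jak3 fell by 2.82, Stat5a by 1.83 and Stat6 by 1.18 on the log2 scale. Of 14 negative regulators 4 rose (Socs6, Ptpn1 and Pias3 by 0.45 to 0.78 among them) and Pias2, an inhibitor of activated STAT, fell (log2 change −1.16, adjusted p = 7.90e-06). In the ERK and PI3K arm, the other branch below gp130, 3 of 7 genes rose in WT and 2 fell: the adaptor Shc1 gained 0.83, the phosphatase gene Ptpn11 gained 0.59 and Pik3r1 gained 0.78, while the docking protein gene Gab1 changed by −0.67. The calls of Pias3 and Pik3r1 were each lost without some single libraries (log2 changes 0.34 to 1.21 and 0.51 to 1.06).

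As mESC the KO had less Lifr, Stat3, Pim1 and Gbx2 RNA than WT, by 1.56- to 1.67-fold. These 4 of the 7 genes fell and none rose, where 6.26% of all tested genes fell and 3.23% rose. The median change of the 7 was −0.64 (log2) against −0.04 over all tested genes. The counts compared stand in the stage paragraphs above. For 5 of the 7 genes, these 4 and Socs3, both KO libraries lay below both WT libraries, as they did for 31.6% of all tested genes.

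Among the receptor chains Lifr was 1.66-fold lower in KO mESC (log2 change −0.73 ± 0.18 SE, adjusted p = 0.0230). Il6st differed by −0.17 (95% interval −0.46 to 0.13). Stat3 was 1.62-fold lower (−0.70 ± 0.18 SE, adjusted p = 0.0278), and Jak1 differed by 0.01 (−0.35 to 0.36), a value that was −0.20 with equal library totals, −0.02 with TMM scaling and −0.03 with edgeR. Of the targets Pim1 was 1.56-fold lower (−0.64 ± 0.14 SE, adjusted p = 0.0126) and Gbx2 1.67-fold lower (−0.74 ± 0.20 SE, adjusted p = 0.0401). Socs3 differed by −0.47 (−0.80 to −0.14, adjusted p = 0.0690), though its KO libraries lay below both WT libraries, and it passed the threshold with edgeR (adjusted p = 0.0433) and DESeq2 (0.0327).

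All 4 calls leaned on single libraries. Without WT mESC replicate A, where the 7 genes were highest, none was called and the changes of Stat3 and Gbx2 were −0.45 (adjusted p = 0.238) and −0.47 (adjusted p = 0.311). None was called without KO mESC replicate B either, and Pim1 alone without KO mESC replicate A, while 5 were called without WT mESC replicate B. No setting or left-out library turned the direction of any of the 4. With only the groups compared in the model none of the 7 was called, although 2 libraries a group then carry the whole estimate of spread.

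At day 2 the KO shortfall lay in Il6st, Stat3 and Pim1. These 3 of 7 fell and none rose (3.64% of all tested genes fell and 1.57% rose), and the median of the 7 was −0.38 against 0.02 over all genes. Il6st was 1.98-fold lower in KO (log2 change −0.99 ± 0.14 SE, adjusted p = 9.78e-04) and Stat3 2.17-fold lower (−1.11 ± 0.18 SE, adjusted p = 0.00258). Both calls held without any 1 of the 4 libraries, with changes of −1.08 to −0.89 for Il6st and −1.24 to −0.99 for Stat3. Pim1 was 1.51-fold lower (−0.59, adjusted p = 0.0260). Its call was lost without WT day 2 replicate B (−0.48, adjusted p = 0.0989), KO day 2 replicate A (−0.63, adjusted p = 0.127) or KO day 2 replicate B (−0.55, adjusted p = 0.209).

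The other 4 genes were not called at day 2. Gbx2 differed by −0.38 (95% interval −0.82 to 0.06) with overlapping libraries. Socs3 differed by −0.27 (−0.60 to 0.06), Lifr by −0.15 (−0.53 to 0.24) and Jak1 by −0.13 (−0.48 to 0.23). The intervals of Socs3 and Gbx2 still hold losses of the size measured in mESC.

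**Figure D3:**
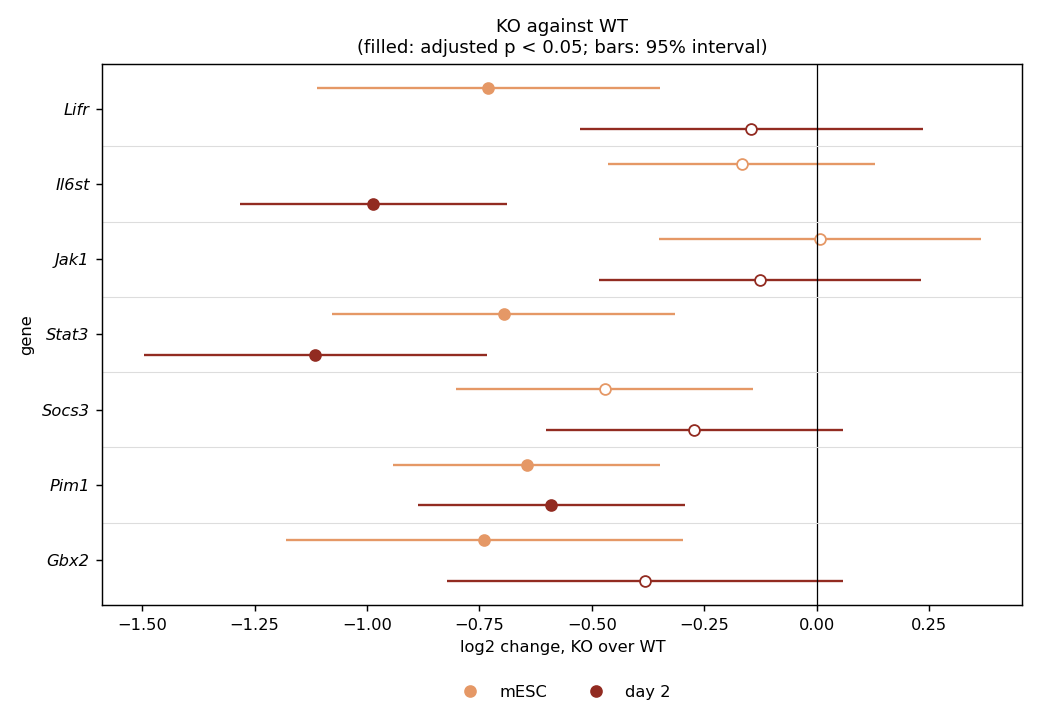
Log2 change of KO over WT in mESC and at day 2, with 95% intervals and filled points for adjusted p under 0.05. Lifr, Stat3, Pim1 and Gbx2 pass the threshold in mESC, and Il6st, Stat3 and Pim1 at day 2.

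Whether the KO change depended on the stage was tested by the interaction of genotype and stage. It was called for none of the 7 with limma (1.13% of all genes were called in either direction), for 2 at an unadjusted p under 0.05, for none with edgeR and for 1, Il6st, with DESeq2. Il6st had an interaction of −0.82 (95% interval −1.24 to −0.40, adjusted p = 0.0693 with limma and 0.0117 with DESeq2), since its KO libraries met those of WT as mESC and lay well below them at day 2. Lifr had the opposite sign, 0.59 (0.05 to 1.12, adjusted p = 0.341). Stat3 gave −0.42 (−0.96 to 0.12) and Pim1 0.05 (−0.37 to 0.47).

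Stat3 and Socs3 both lie on chromosome 11, and that chromosome was lower as a whole in KO. The median change of its 1198 tested genes was −0.27 (log2) in mESC and −0.17 at day 2. Within 2 Mb of Stat3 the median of 99 genes was −0.48 in mESC, of which 24 were called, and −0.28 at day 2. At day 2 Stat3, at −1.11, stood below all but 12.1% of these neighbours, and in mESC, at −0.70, below all but 34.3%. The neighbours of Socs3 had medians of −0.31 and −0.16 over 76 genes. Next to Pim1, on chromosome 17, the median of 56 genes was −0.02 in mESC and 0.19 at day 2, and next to Lifr, Il6st, Jak1 and Gbx2 the mESC medians over 17 to 21 genes ran from −0.21 to 0.22. The part of the chromosome in the Stat3 result was not tested.

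Stat5b, Stat5a and Stat3 follow each other on chromosome 11, from 100780731 (the first base of Stat5b) to 100939594 (the last of Stat3) in GRCm38.p6. All 3 fell in KO mESC. Stat5a had 225 and 233 normalised counts in WT mESC and 104 and 91.7 in KO (log2 change −1.22, adjusted p = 0.0414), and Stat5b had 106 and 103 in WT and 70.6 and 43.2 in KO (−0.90, adjusted p = 0.0479). The Stat5a call was lost without any 1 of the 4 libraries (adjusted p 0.0642 to 0.23), and the Stat5b call without any but KO mESC replicate A, with −0.55 (adjusted p = 0.386) without KO mESC replicate B. At day 2 Stat5a fell in KO (−1.37, adjusted p = 0.0348), though not without WT day 2 replicate A or B (adjusted p = 0.109 and 0.0756) or KO day 2 replicate B (−0.91, adjusted p = 0.344).

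Among the 49 other tested pathway genes 1 rose and 9 fell in KO mESC, and 1 rose and 7 fell at day 2. Of all tested genes 3.23% rose and 6.26% fell in mESC, and 1.57% and 3.64% at day 2. The list medians were −0.24 and −0.15. Lif, the ligand itself, rose in KO mESC: it had 90.1 and 53.9 normalised counts in WT and 212 and 167 in KO (log2 change 1.42, adjusted p = 0.00466), a call kept without any 1 of the 4 libraries. The mESC medium already held recombinant LIF. At day 2 Lif had 201 in WT and 245 in KO, a difference of 0.28 (95% interval −0.27 to 0.82).

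Of 11 further STAT3 targets 4 fell in KO mESC and 3 at day 2. Myc, a growth regulator, had 2563 and 1789 in WT mESC and 961 and 874 in KO (log2 change −1.22, adjusted p = 9.51e-04), and was called without any 1 library. The AP-1 gene Junb fell by 1.03 in mESC and by 1.37 at day 2 on the log2 scale, Icam1 by 0.59 and 0.69, and Klf5 by 0.80 in mESC. Fos, the other AP-1 gene of the list, had 75.1 and 79.0 in WT at day 2 and 6.65 and 10.5 in KO (−3.06, adjusted p = 8.08e-04). Of the other calls of the list, all but that of Junb at day 2 leaned on single libraries. In mESC Junb, Icam1 and Klf5 were not called without WT mESC replicate A (adjusted p = 0.0603, 0.124 and 0.168) or KO mESC replicate B (0.0787, 0.131 and 0.168), nor Icam1 and Klf5 without KO mESC replicate A (0.073 and 0.0518). At day 2 Icam1 was lost without KO day 2 replicate B (−0.55, adjusted p = 0.137). Fos and Junb at day 2 were called without any 1 library. Fos and Junb are immediate early genes that many signals switch on, so neither reports STAT3 alone. Mcl1, the most abundant of the list, differed by 0.19 in mESC (−0.13 to 0.51) and by 0.29 at day 2 (−0.03 to 0.61).

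The receptor gene Cntfr fell in KO mESC (log2 change −1.63, adjusted p = 0.00491). It was not called without KO mESC replicate B (−1.15, adjusted p = 0.0532). No receptor gene was called at day 2, when Cntfr differed by 0.50 (95% interval −0.13 to 1.13). The negative regulator Socs2 fell in KO mESC (−0.57, adjusted p = 0.0258) and Socs1 at day 2 (−1.12, adjusted p = 0.0407). Socs2 was lost without WT mESC replicate A (adjusted p = 0.155) or KO mESC replicate B (adjusted p = 0.274), and Socs1 without any 1 library (adjusted p 0.0653 to 0.277).

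Stat2, which carries interferon signals, fell in KO at day 2 by 0.69 and Stat6 rose by 0.50 on the log2 scale. The Stat2 call was lost without any 1 library (adjusted p 0.0587 to 0.158) and the Stat6 call without any but WT day 2 replicate B (adjusted p 0.101 to 0.317). No gene of the ERK and PI3K arm was called at either stage, where Gab1, the most abundant, differed by −0.26 in mESC and by −0.45 at day 2.

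**Figure D4:**
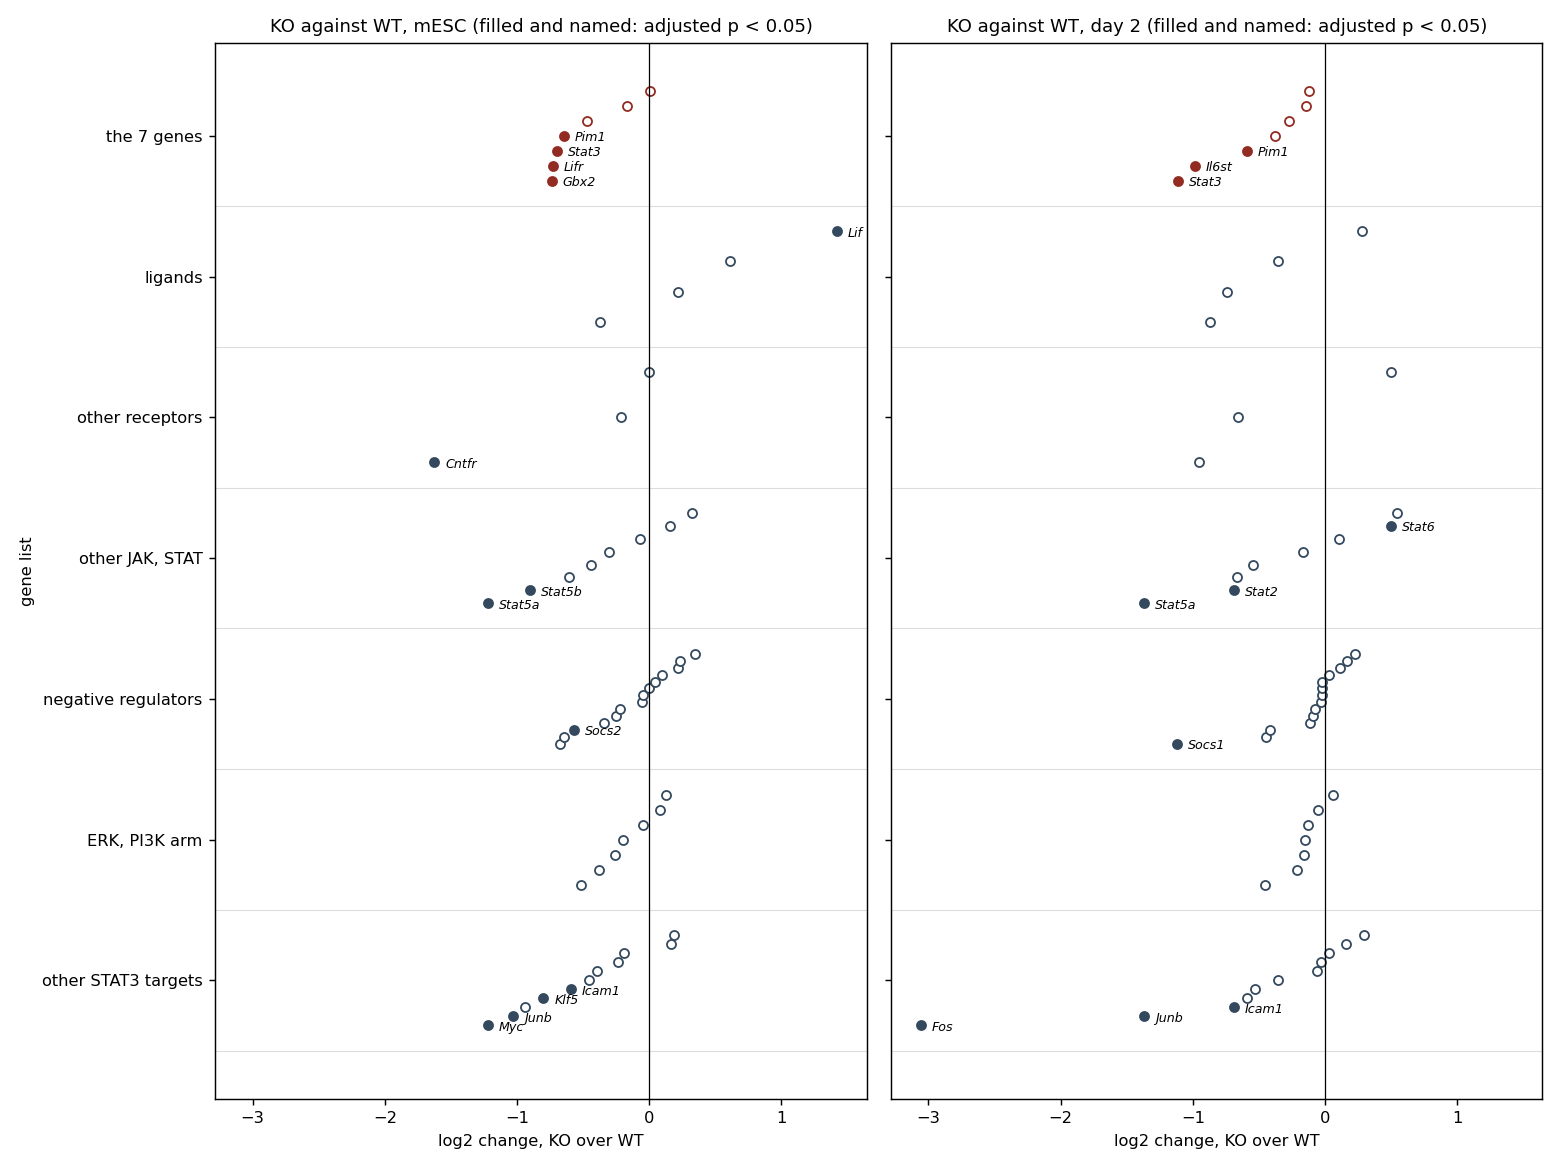
Log2 change of KO over WT for the 7 genes and for the other pathway genes described here by list, in mESC (left) and at day 2 (right). Filled, named points have an adjusted p under 0.05, with Lif (1.42) and Stat6 (0.50) the 2 that rose among the listed genes.

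Re-expression of Proser1 gave no called difference in the 7 genes as mESC. None was called in KO+Rescue against KO with limma, where 1.51% of all tested genes were called in either direction. At an unadjusted p under 0.05 there was 1, Jak1, and edgeR and DESeq2 called 0 each. The KO+Rescue libraries lay above both KO libraries for 5 of the 7 genes (Lifr, Stat3, Socs3, Pim1 and Gbx2), as they did for 23.4% of all tested genes. The differences were 0.26 for Lifr (95% interval −0.12 to 0.64), 0.28 for Stat3 (−0.10 to 0.66), 0.18 for Socs3 (−0.15 to 0.51), 0.27 for Pim1 (−0.03 to 0.56) and 0.39 for Gbx2 (−0.05 to 0.83). Jak1 differed by −0.36 (−0.72 to −0.00155, adjusted p = 0.371) and Il6st by −0.14 (−0.43 to 0.16).

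At day 2 Gbx2 alone was called, 1.96-fold higher in KO+Rescue than in KO (log2 change 0.97 ± 0.20 SE, adjusted p = 0.0326). It was 1 of 7 that rose, with none that fell, where 0.502% of all tested genes rose and 1.33% fell. The call was lost without any 1 of the 4 libraries (adjusted p 0.185 to 0.235), while the change stayed between 0.88 and 1.06. The KO+Rescue libraries, at 862 and 863, also lay above the WT libraries at 702 and 469. Il6st differed by 0.39 (95% interval 0.09 to 0.68, adjusted p = 0.176), with KO+Rescue libraries between those of KO and WT. Stat3 differed by 0.20 (−0.18 to 0.58), Lifr by 0.08 (−0.30 to 0.47), which was −0.00484 with equal library totals, and Jak1 by 0.01 (−0.35 to 0.36), which was −0.08 with equal library totals. Pim1 differed by −0.12 (−0.42 to 0.18) and Socs3 by −0.32 (−0.65 to 0.01).

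Of the 49 other pathway genes none was called in KO+Rescue against KO as mESC and 1, Junb, at day 2 (log2 change 0.82, adjusted p = 0.0485). Junb had 149 and 159 in KO at day 2 and 284 and 263 in KO+Rescue, between KO and the WT values of 414 and 384. It was not called without any 1 library (adjusted p 0.202 to 0.367). As mESC Lif differed by −0.82 (95% interval −1.36 to −0.28, adjusted p = 0.144) and Cntfr by 0.62 (−0.01 to 1.25), with Stat6 at −0.32 and Pias2, Gab1 and Mcl1 between −0.01 and 0.03. The interaction of re-expression and stage was called for none of the 7 with limma, edgeR or DESeq2 (0.0847% of all tested genes with limma), and for 2, Il6st and Socs3, at an unadjusted p under 0.05. Il6st gave 0.52 (0.10 to 0.94, adjusted p = 0.410).

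**Figure D5:**
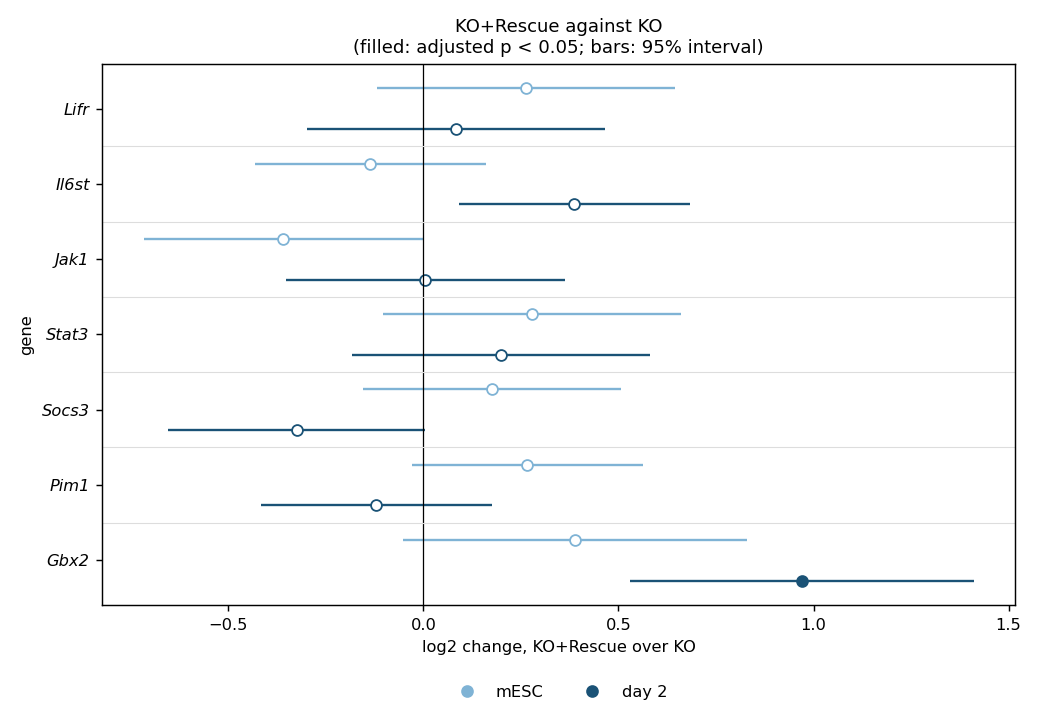
Log2 change of KO+Rescue over KO in mESC and at day 2, with 95% intervals and filled points for adjusted p under 0.05. Gbx2 at day 2 (0.97) is the filled point, and the mESC intervals of Lifr, Stat3, Socs3, Pim1 and Gbx2 all include 0.

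KO+Rescue was also set against WT, with the same WT libraries as in the KO comparisons. As mESC none of the 7 was called with limma (18.2% of all tested genes were, in either direction), although all 7 had both libraries below both WT libraries, as 31.3% of all tested genes did. There were 4 at an unadjusted p under 0.05, 1 call with edgeR (Lifr) and 0 with DESeq2. The changes ran from −0.47 for Lifr (95% interval −0.85 to −0.09, adjusted p = 0.0803) to −0.30 for Socs3 (−0.63 to 0.03). Without WT mESC replicate B 6 of the 7 were called, all lower, and without replicate A none. With equal library totals, which moved the median of all genes to −0.38 from −0.06, 6 were called lower.

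At day 2 Il6st, Stat3, Socs3 and Pim1 fell in KO+Rescue against WT, 4 of 7 with none risen (7.2% of all tested genes fell and 3.9% rose). Stat3 was 1.89-fold lower (log2 change −0.92, adjusted p = 0.00668), Pim1 1.64-fold (−0.71, adjusted p = 0.00684), and Il6st and Socs3 1.51-fold each (adjusted p = 0.0164 and 0.0271). Chromosome 11, which holds Stat3 and Socs3, was lower here too, with a median of −0.27 (log2). Within 2 Mb the median was −0.41 over 99 neighbours of Stat3 (21 called) and −0.33 over 76 of Socs3 (10 called). As mESC the KO+Rescue change of Stat3 and the median of its neighbours were both −0.42. The part of the chromosome in these falls was not tested. Gbx2 differed by 0.59 (95% interval 0.15 to 1.03, adjusted p = 0.0798), and was called higher without WT day 2 replicate A (0.88, adjusted p = 0.0265). Lifr differed by −0.06 (−0.44 to 0.32) and Jak1 by −0.12 (−0.48 to 0.24). None of the 4 was called without KO+Rescue day 2 replicate A (Stat3 −0.72, adjusted p = 0.0899), 2 without replicate B, and Socs3 was also lost without WT day 2 replicate A (adjusted p = 0.0911).

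Of the other pathway genes Cntfr (−1.01), Myc (−0.97) and Klf5 (−0.66) fell in KO+Rescue mESC against WT (log2 changes). These were 3 of 49 tested, with none risen, where 9.04% of all tested genes fell and 9.15% rose. Without WT mESC replicate A Cntfr was −0.65 (adjusted p = 0.27) and Klf5 −0.42 (adjusted p = 0.258), and without KO+Rescue mESC replicate B none of the 3 was called, nor Cntfr without KO+Rescue mESC replicate A (adjusted p = 0.0609). At day 2, 6 of the 49 fell and none rose, where 7.2% of all tested genes fell and 3.9% rose. Among them were Ctf1 (−1.11), Stat2 (−0.64), Socs1 (−1.23), Icam1 (−0.73) and Fos (−1.69). Of the 5 named, Icam1 alone was called without any 1 library. Without KO+Rescue day 2 replicate A or WT day 2 replicate A the other 4 were not called, and without KO+Rescue day 2 replicate B Ctf1 was. Without WT day 2 replicate B all but Fos (adjusted p = 0.0539) were.

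Within a stage the members varied together to different degrees. After each stage's mean was removed, Pearson's r over the 12 libraries was 0.91 between Stat3 and Pim1 and between Socs3 and Pim1, and 0.83 between Il6st and Stat3. Gbx2 ranged from r of 0.10 to Socs3 and 0.22 to Pim1 up to 0.56 to Lifr. Jak1 had r of 0.23 (Gbx2) to 0.44 (Il6st) to the other members. Such values share the genotype groups and the A and B gap of the mESC libraries, and are given as a description. Among 11161 genes with a mean of at least 100, those most like Stat3 were Nphs1 (0.96), Litaf (0.95) and Tuba4a (0.94), those most like Pim1 were Aplp1 (0.99), Pcyt2 (0.97) and Aes (0.97), and those most like Socs3 were Als2cl, Angel1 and Prr5 (0.96 each). The nearest to Lifr were Sec24a (0.95), Sh3pxd2b (0.92) and Nipal3 (0.92), and to Il6st Nudt4 (0.97), Kcnk5 (0.97) and Fhl1 (0.96). Among the nearest to Jak1 were Snx30 and 5031439G07Rik (0.94 each), and Gbx2 was nearest to Cdk6, Trp53bp2 and Zeb1 (0.93 to 0.94).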

How the data were processed

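RNA-seq libraries of 3 genotypes at 2 stages were grouped by their labels. Per the labels and the study's methods, the authors trimmed reads with Trimmomatic, aligned them to mm10 with STAR, counted read pairs with featureCounts and deposited the counts divided by DESeq2 size factors, a signal per gene (versions not given in the sources used here). No label explains the column names 39 and 39R, which were taken to mean KO and KO+Rescue. All values (100%) were whole multiples of 1 read within 0.001, so whole read pairs were recovered.

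Genes with a mean of at least 10 were tested with limma 3.58.1 (R 4.3.3, trend) on log2(normalised count + 1), which understates changes of low genes, with 6 group means over 12 libraries. P-values were two-sided and Benjamini-Hochberg adjusted over 15341 genes, and adjusted p under 0.05 was a call (rose, fell). The test was tested on simulated data. On the recovered read pairs of KO against WT in mESC, edgeR 4.0.16 called 1434 genes and DESeq2 1.42.0 called 1939, against 1455 with limma. Settings tried were a pseudocount of 0.5, no filter, the compared groups alone, equal library totals, TMM scaling, a replicate block and leaving out each library.

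Members and lists were chosen with earlier results of these data known. Named were all 7 members, up to 4 called genes a pathway list with the smallest adjusted p (or its most abundant gene), and per member the 3 genes of highest r. CG dinucleotides were counted after values were seen. Gene positions (GRCm38.p6) and promoters come from RefSeq, transcript lengths from GENCODE. Counts per kb used 1 transcript a gene. Some genes that the rule names are not reported here and are counted only in the list totals.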

Additional observations from a re-analysis of the deposited data

Results flagged for a closer look

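In the limma model the interaction of KO (against WT) and stage was called for 2 of the 49 listed pathway genes tested. Of all tested genes 1.13% were called, in either direction. For Cntfr the interaction was 2.13 on the log2 scale (95% interval 1.24 to 3.01, adjusted p = 0.0245): KO libraries had 95.2 and 48.6 normalised counts against 271 and 166 in WT as mESC, and 999 and 906 against 778 and 582 at day 2. For Myc it was 1.25 (0.74 to 1.77, adjusted p = 0.0237), with KO lower than WT as mESC and at 1336 and 1240 against 1371 and 1159 at day 2. Both were called with edgeR and DESeq2, and neither with no filter (adjusted p = 0.0696 for Cntfr and 0.0548 for Myc), with only the groups compared (0.095 and 0.0817) or with equal library totals (0.0515 and 0.0842). Leaving out 1 library gave 1.65 to 2.60 for Cntfr (called 3 times of 8) and 0.99 to 1.51 for Myc (called 2 times of 8), without WT mESC replicate A 1.77 (adjusted p = 0.0755) and 0.99 (adjusted p = 0.0602).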

How the results depend on the processing

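The falls of Lifr, Il6st, Stat3 and Socs3 on the stage change, in each genotype, and those of Il6st and Stat3 in KO at day 2 were called under every setting run and without any 1 library. A pseudocount of 0.5 changed no call of the 7 genes. Of KO against WT in mESC (4 called) 2 were called with no filter and 0 with only the groups compared. The Gbx2 call in KO+Rescue against KO at day 2 became 0 with no filter and 0 with equal library totals. In KO+Rescue against WT as mESC (0 called) equal library totals gave 6 and edgeR 1, and at day 2 (4 called) only the groups compared gave 2. The KO and stage interaction (0 called) gave 1 with DESeq2. Equal library totals moved the median of all genes to −0.25 in KO against WT as mESC and to 0.21 to 0.35 on the stage change.

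Leaving out 1 library gave 0 to 5 called genes in KO against WT as mESC, 2 to 3 at day 2, 0 to 0 in KO+Rescue against KO at day 2, and 0 to 6 (mESC) and 0 to 4 (day 2) in KO+Rescue against WT. With 1 library left in a group, that library is assumed to vary like the others.

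Small differences that were not called turned sign. Jak1 in KO against WT as mESC was −0.20 with equal library totals, −0.022 with TMM scaling, −0.034 with edgeR and −0.00444 with DESeq2, and −0.22 to 0.24 without 1 library. With equal library totals Lifr and Jak1 in KO+Rescue against KO at day 2 were −0.00484 and −0.084, and on the stage change Pim1 was 0.23 in WT and 0.030 in KO+Rescue and Gbx2 0.040 in KO. Leaving out 1 library gave −0.40 to 0.11 for Lifr and −0.25 to 0.00254 for Jak1 in KO against WT at day 2, −0.29 to 0.015 for Il6st in KO+Rescue against KO as mESC, −0.17 to 0.34 for Lifr and −0.011 to 0.021 for Jak1 at day 2, and −0.25 to 0.00794 for Jak1 in KO+Rescue against WT at day 2. On the stage change it gave −0.16 to 0.15 for Pim1 in WT and −0.020 to 0.12 in KO. For the KO and stage interaction it gave −0.36 to 0.10 (Jak1), −0.00208 to 0.40 (Socs3) and −0.10 to 0.21 (Pim1), and for that of KO+Rescue −0.43 to 0.077 (Lifr) and −0.27 to 0.11 (Stat3). The cause was not tested.

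No label says whether the letters A and B mark shared cultures, and the main model did not pair them. The study's methods describe 2 replicate samples per genotype, with RNA taken at day 0 and at day 2. The A minus B deviations of groups correlated at −0.05 to 0.41, the highest for WT mESC with WT day 2. They correlated at 0.12 to 0.17 among the 3 mESC groups and −0.05 to 0.06 among the 3 day 2 groups. A replicate block gave 5 called genes of the 7 in KO against WT as mESC and 2 in KO+Rescue against WT as mESC. It gave 1 (Il6st, −0.82) in the KO and stage interaction. With the block Gbx2 in KO+Rescue against WT at day 2 and Jak1 on the stage change in WT were called as well. Over all tested genes the block raised the calls in KO against WT as mESC from 1455 to 3657.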
